A study of Mus musculus with 8 samples.

Results

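PIM kinase and SOCS feedback genes are transcripts that cytokine receptors induce through STAT transcription factors. The group described here was named by gene symbol and holds Pim1, Pim2, Pim3, Cish, Socs1, Socs2 and Socs3. All 7 were found among the 10825 genes of the deposited count table, and 6 of the 7 passed the filter on low counts that left 6156 genes for testing. Socs1 did not pass. The genes were chosen by symbol with their CPM values in the DRQ and PBS libraries already known, so their own differences between DRQ and PBS are given as a description, and no test is offered in their support.

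The libraries were made from dendritic cells (DCs) sorted from E0771 tumours, a transplanted mouse mammary carcinoma line, in wild-type mice. One group of 4 samples came from mice given DRQ, which the labels call a CD74 inhibitor, and the other group of 4 from mice given PBS. Dosing began on day 10 after tumour cells were injected and tumours were collected at 3 weeks. Every animal carried the tumour and was of the same wild-type genotype, and the labels give neither the animals' age nor whether a sample was 1 mouse or a pool. P-values therefore reflect variation among samples that could be partly or wholly technical.

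Cytokines such as interferons, interleukin-6, interleukin-2 and GM-CSF bind receptors that carry JAK kinases, which phosphorylate STAT factors, and the STAT factors then enter the nucleus and switch on target genes. Among the fastest of these targets are the PIM kinases, serine/threonine kinases that need no activating phosphorylation and act mainly through how much of them is made, promoting survival and protein synthesis. SOCS proteins and CISH close the loop: each has an SH2 domain that binds phosphotyrosine on a receptor or a JAK, and a SOCS box that recruits a ubiquitin ligase, so that signalling from the same receptor is damped. In DCs, SOCS1 is known for restraining responses to interferons, and SOCS3 for restraining signalling through the interleukin-6 receptor chain gp130.

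The start-site windows of 3 members held letters of the motifs that STAT or interferon-induced factors bind, and those windows are shown. Of the 7 members, 6 had at least 1 window in RefSeq's promoter table (build GRCm38.p6, not the GRCm39 build named for these data), each running from 250 bases before to 50 bases after the annotated start. No value measured here was placed on these coordinates. Both strands were searched for TTCNNNGAA and TTCNNNNGAA, palindromes bound by STAT dimers, and for GAAANNGAAA, the core of the interferon-stimulated response element. Capitals mark the matches.
Cish, chr9:107296409-107296708, plus strand: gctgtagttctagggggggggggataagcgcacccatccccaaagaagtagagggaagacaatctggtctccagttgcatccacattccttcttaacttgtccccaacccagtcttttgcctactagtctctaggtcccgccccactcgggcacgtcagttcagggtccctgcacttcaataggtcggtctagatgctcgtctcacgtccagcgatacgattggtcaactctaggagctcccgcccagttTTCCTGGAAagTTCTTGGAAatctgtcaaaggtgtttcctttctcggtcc
Socs1, chr16:10785487-10785786, minus strand: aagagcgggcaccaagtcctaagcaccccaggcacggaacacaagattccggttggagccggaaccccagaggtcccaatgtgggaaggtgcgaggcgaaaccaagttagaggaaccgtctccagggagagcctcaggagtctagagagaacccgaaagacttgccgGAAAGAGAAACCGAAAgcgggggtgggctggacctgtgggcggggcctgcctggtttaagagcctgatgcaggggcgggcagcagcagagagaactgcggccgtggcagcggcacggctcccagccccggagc
Socs3, chr11:117969317-117969616, minus strand: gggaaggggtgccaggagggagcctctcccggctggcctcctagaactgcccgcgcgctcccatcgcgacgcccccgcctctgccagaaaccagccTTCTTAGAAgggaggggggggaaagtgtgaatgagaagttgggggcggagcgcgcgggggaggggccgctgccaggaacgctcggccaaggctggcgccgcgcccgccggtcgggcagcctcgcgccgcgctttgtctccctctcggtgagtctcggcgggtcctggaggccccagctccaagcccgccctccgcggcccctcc

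Cish held TTCNNNGAA 2 times, from base 251 and base 262 counted from the 5′ end of its window, so the first began at the annotated start and the second just after it. Socs3 held it 1 time, from base 97. Socs1 held the interferon core 2 times, from bases 168 and 174, and these matches overlap, sharing 1 GAAA. Among all 32851 windows of the same length, 8.3% held TTCNNNGAA, 6.95% TTCNNNNGAA and 3.44% GAAANNGAAA. None of the 3 motifs was found in either window of Pim1 or in that of Pim2 or Pim3, and no member window held TTCNNNNGAA. Such a match describes letters only and shows neither binding nor a cause, and these windows leave out sites farther away.

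Library totals were 438648 to 539381 counts in the DRQ group and 361792 to 543892 in the PBS group. Expression is given as CPM, a gene's count relative to the total of the tested genes, scaled by TMM factors. Counts came from 3′ ends and were not divided by transcript length, so levels are compared between libraries, not between genes. Markers used here for the labelled cell type were uneven. Cst3, H2-Ab1 and Irf8 averaged 3578, 2928 and 1873 CPM over the 8 libraries. Flt3 averaged 40.8 CPM and Zbtb46, a factor of conventional DCs, 6.14 CPM, while Xcr1 and Clec9a of type 1 conventional DCs were not listed. Cytotoxic lymphocyte transcripts were abundant: 11 NK cell and cytotoxic markers summed to 11521 to 17273 CPM in DRQ and 12655 to 18614 CPM in PBS. In bulk samples of this kind, fewer cells of a type and less RNA per cell cannot be told apart.

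Pim1 was the member whose groups stood apart. Pim1 (ENSMUSG00000024014), the PIM kinase best known as a target of STAT3 and STAT5, measured 591, 553, 520 and 541 CPM in DRQ replicates 1 to 4, against 311, 244, 384 and 418 CPM in PBS replicates 1 to 4. Every DRQ library lay above every PBS library, with PBS replicate 2 the lowest of the 8. The means were 552 ± 29.9 CPM in DRQ and 340 ± 77.6 CPM in PBS (SD, n = 4 each), and the log2 fold change was 0.70 with a standard error (SE) of 0.16. Across all 6156 tested genes, 2.14% had every DRQ library above every PBS library and 2.18% every DRQ library below. Of the 6 tested members, 1 (Pim1) was in the first class and 0 in the second.

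Pim2 and Pim3, related kinases with overlapping substrates, differed less between the groups. Pim2 (ENSMUSG00000031155) measured 188, 181, 109 and 158 CPM in the 4 DRQ libraries and 170, 129, 117 and 139 CPM in the 4 PBS libraries. DRQ replicates 1 and 2 were above every PBS library but DRQ replicate 3 had the lowest value of all 8. The groups thus overlapped in part, and the log2 fold change was 0.19 ± 0.21 (SE). Pim3 (ENSMUSG00000035828) measured 120, 63.1, 84.7 and 88.9 CPM in DRQ replicates 1 to 4 and 80.2, 75.8, 42.1 and 95.5 CPM in PBS replicates 1 to 4. Here the groups overlapped too, with DRQ replicate 1 highest and PBS replicate 3 lowest, and the log2 fold change was 0.27 ± 0.28 (SE). Neither of these estimates exceeded its own standard error.

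**Figure D1:**
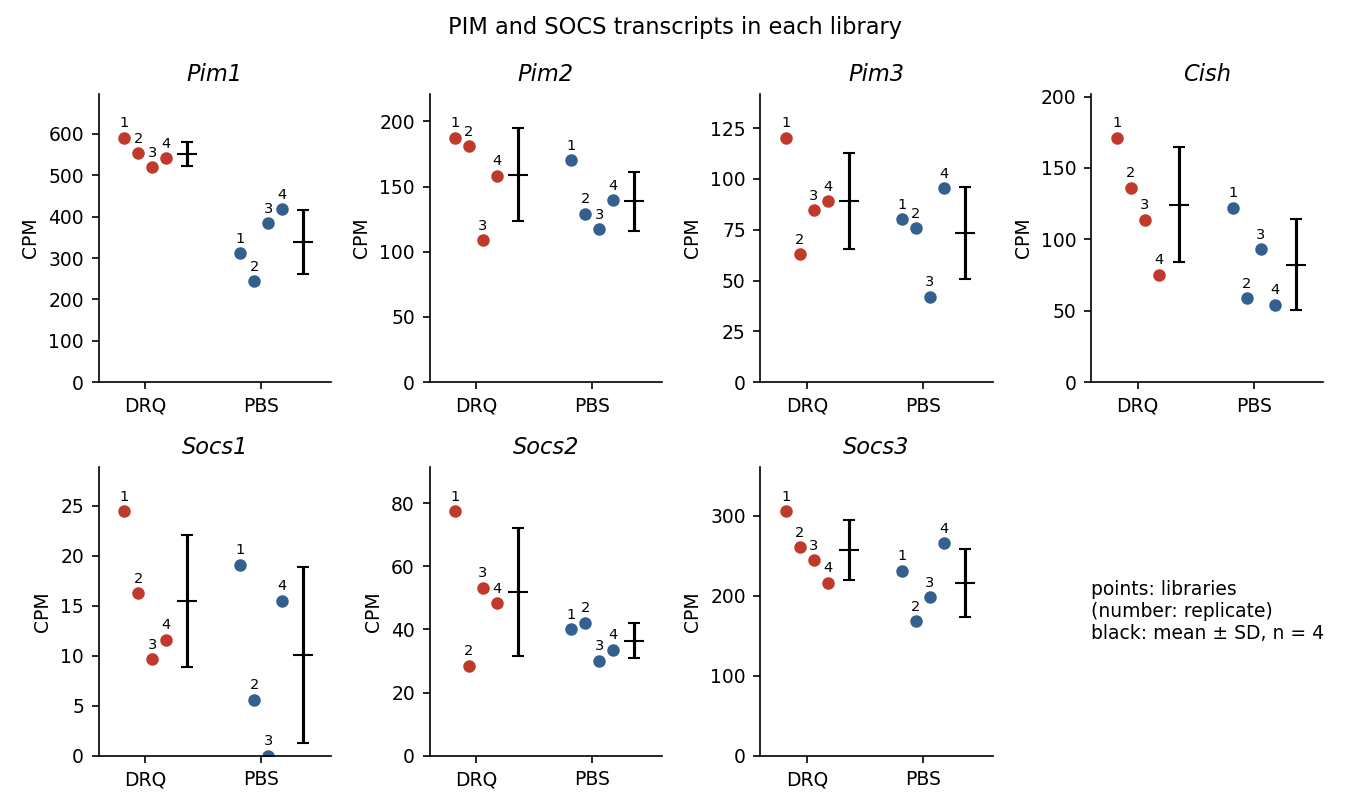
CPM (vertical axes, each from 0) of the 7 genes in the DRQ libraries, left and red, and the PBS libraries, right and blue, with the replicate number above each point and the mean ± SD in black (n = 4 each). Pim1 is the panel in which no DRQ point (520 to 591 CPM) falls within the PBS range (244 to 418 CPM).

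Cish and Socs2 had the larger estimates within the SOCS family, with overlapping groups. Cish (ENSMUSG00000032578), a STAT5 target whose product blocks receptor docking sites for STAT5, measured 171, 136, 114 and 75.4 CPM in DRQ and 122, 59.0, 93.1 and 54.2 CPM in PBS, replicates 1 to 4. DRQ replicates 1 and 2 were above every PBS library while DRQ replicate 4 was below PBS replicates 1 and 3. The means were 124 ± 40.2 CPM in DRQ and 82.1 ± 31.9 CPM in PBS (SD, n = 4 each), and the log2 fold change was 0.57 ± 0.28 (SE). Socs2 (ENSMUSG00000020027), a regulator of growth hormone signalling that is also part of the mature DC program, measured 77.5, 28.5, 53.2 and 48.3 CPM in DRQ and 40.1, 42.1, 30.0 and 33.6 CPM in PBS. PBS had the narrower range and 3 DRQ libraries lay above all of it, while DRQ replicate 2 was the lowest of the 8 (log2 fold change 0.50 ± 0.36, SE).

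Socs3 and Socs1 are the members whose kinase inhibitory region acts on JAKs directly, and Socs1 was the only member too low to test. Socs3 (ENSMUSG00000053113) measured 306, 260, 244 and 216 CPM in DRQ replicates 1 to 4 and 231, 168, 198 and 266 CPM in PBS replicates 1 to 4. The groups overlapped, since PBS replicate 4 was higher than 3 of the DRQ libraries, and the log2 fold change was 0.24 ± 0.18 (SE). Socs1 (ENSMUSG00000038037) had 12, 8, 4 and 6 counts in DRQ and 10, 2, 0 and 6 counts in PBS, replicates 1 to 4. Its levels were thus 24.5, 16.3, 9.68 and 11.6 CPM in DRQ and 19.1, 5.62, 0 and 15.5 CPM in PBS. At these counts the exact Poisson 95% interval of DRQ replicate 1 ran from 12.6 to 42.8 CPM and that of PBS replicate 1 from 9.16 to 35.1 CPM, and that of the 0 in PBS replicate 3 reached 11.1 CPM (counting error only). Fitted without the filter, the log2 fold change of Socs1 was 0.56 ± 0.67 (SE), so a difference of this size could not be resolved at this depth.

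As a set, the 6 members that could be tested all lay above 0 on the log2 scale and their median was 0.38, beside a median of -0.01 and 48.4% of estimates above 0 over all genes tested. None of the 6 passed an adjusted p of 0.05 with edgeR, where 0.0325% of all tested genes were called higher (2 of 6156) and 0% lower. The choice of members rested on the same comparison, so these counts are given for completeness and nothing is read from them. Pim1 had the smallest SE, and its estimate ranged from 0.57 to 0.82 when any 1 library was left out. Cish ranged from 0.39 to 0.86, Socs2 from 0.24 to 0.70, Pim3 from 0.09 to 0.41, Socs3 from 0.14 to 0.36 and Pim2 from 0.11 to 0.33. Every one of these values was above 0, and the low ends of Cish, Socs2 and Pim2 came from leaving out DRQ replicate 1.

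**Figure D2:**
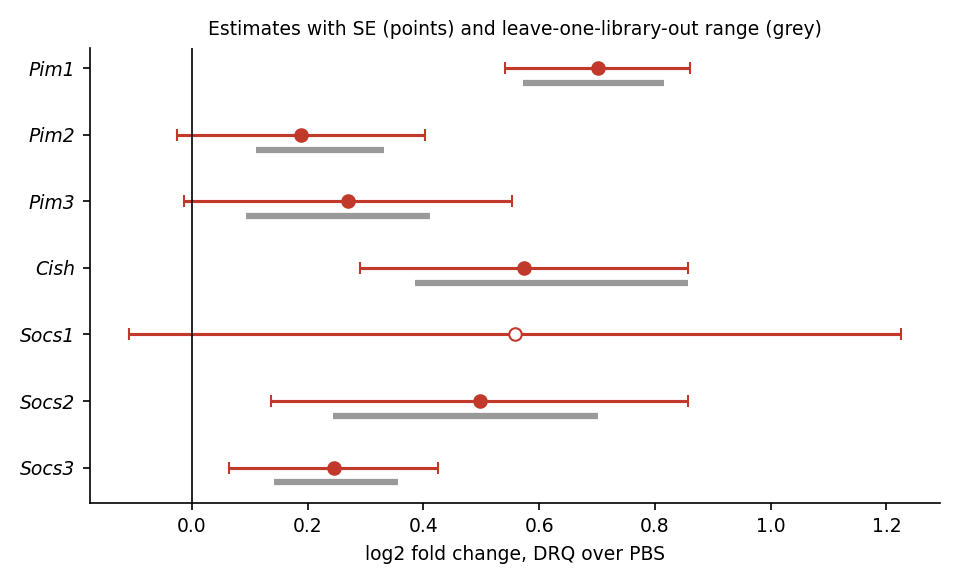
Log2 fold change of DRQ over PBS (horizontal axis) for each gene, as points with SE bars, with the range over the 8 fits that each leave out 1 library as a grey bar. The open point for Socs1 is from the fit without the low-count filter and has no grey bar. The shortest SE bar is that of Pim1, at 0.70 ± 0.16.

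The members did not vary as 1 block between libraries. DRQ replicate 1 held the highest DRQ value of all 7 members, but no PBS library did the same: PBS replicate 1 was highest for 3 members, PBS replicate 4 for 3 and PBS replicate 2 for 1. After the group means were subtracted on the log2 scale, 5 of the 21 pairs of members had a Pearson r above 0.5 over the 8 libraries, which share depth and scaling. Those pairs were Pim3 with Socs1 (0.78), Pim3 with Socs2 (0.71), Pim2 with Socs1 (0.71), Pim1 with Socs3 (0.70) and Socs1 with Socs3 (0.67). The pairs with Socs1 rest on a gene with 48 counts in all and 0 in PBS replicate 3, so counting error weighs on their r. Pim1 and Cish, with the largest estimates, stood at 0.10, and Pim1 and Socs2 at -0.21. The 2 PIM kinases Pim1 and Pim2 stood at 0.09.

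**Figure D3:**
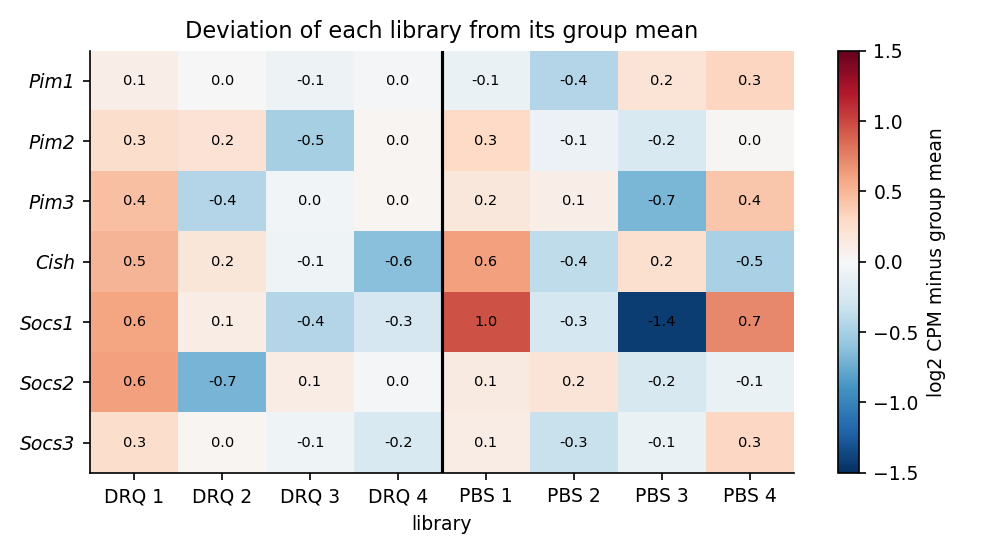
Heat map of log2 CPM minus the mean of the library's own group for the 7 genes (rows) in the 8 libraries (columns, DRQ left of the line, PBS right); red is above and blue below the group mean. The DRQ 1 column is red in every row, and the darkest blue cell is Socs1 in PBS 3, where its count was 0.

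How much of this spread could be counting error differed by gene. In DRQ the coefficient of variation (CV) of Pim1 was 5.42%, below the 6.15% that its mean count gives by counting alone, whereas in PBS it was 22.9% against 8.61% from counting. Cish varied by 32.4% in DRQ and 38.8% in PBS, against 13.0% and 17.1% from counting. Socs2 varied by 38.9% in DRQ against 20.1% from counting, and in PBS by 15.4% against 26.0%. The biological coefficient of variation that edgeR fitted had a median of 21.5% over the 6 tested members, from 17.1% for Pim1 to 28.1% for Socs2, beside 26.0% over all genes tested.

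Sums of markers of conventional and mature DCs were apart between the groups in the same direction as Pim1, although no single marker passed an adjusted p of 0.05 with edgeR. The 8 conventional DC markers (Zbtb46, Flt3, Itgax, Cst3, H2-Ab1, H2-Aa, H2-Eb1 and Ciita) summed to 12169 to 13844 CPM in DRQ and 6329 to 11069 CPM in PBS, and most of that sum came from Cst3 and the MHC class II chains H2-Ab1, H2-Aa and H2-Eb1. Of its 7 tested genes 6 had estimates above 0, with a median log2 fold change of 0.55, and Itgax stood at -0.16 ± 0.19 (SE). The 10 listed markers of mature migratory DCs, including the homing receptor Ccr7 and the actin bundler Fscn1, summed to 1362 to 1890 CPM in DRQ and 573 to 1036 CPM in PBS, and all 10 had estimates above 0, with a median of 0.70. The most abundant of the 10 was Tnfrsf4, averaging 398 CPM in DRQ and 246 CPM in PBS, followed by Ccr7 at 296 and 119 CPM. Whether the Tnfrsf4 transcripts came from DCs or from T cells cannot be told apart in these bulk samples. For type 1 and type 2 conventional DC markers the medians were 0.10 over 4 tested genes and 0.07 over 6. The type 2 genes went both ways, as given below, and Clec10a and Cd209a were too low to enter that median. Within groups, Pim1 had a Pearson r over the 8 libraries of 0.89 with the conventional DC sum, 0.76 with the mature DC sum, 0.71 and 0.31 with the type 1 and type 2 sums and 0.83 with the plasmacytoid DC sum. The type 1 sum was mostly Irf8 (mean 1873 CPM), and the plasmacytoid sum mostly Irf7 and Bst2 (means 777 and 743 CPM). Siglech, Ly6d and Spib of the plasmacytoid list averaged only 5.69, 5.51 and 7.19 CPM.

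Most T cell markers also had estimates above 0, which their sum did not show. The 12 markers summed to 2700 to 2855 CPM in DRQ and 2128 to 3024 CPM in PBS, but that sum was mostly Trbc1 and Trbc2, which stood at -0.11 ± 0.13 and 0.04 ± 0.15 (log2 fold change, SE). The median of the 12 was 0.33 and 8 had estimates above 0. At an unadjusted p under 0.05 edgeR gave 5 higher and 0 lower, namely Cd5 (0.94 ± 0.29), Cd4 (0.92 ± 0.33), Cd3d (0.83 ± 0.26), Cd6 (0.60 ± 0.28) and Trac (0.56 ± 0.20, SE), and none passed adjustment. Besides Trbc1, the T cell markers below 0 were Cd8a (-0.65 ± 0.34), Cd3e (-0.35 ± 0.40) and Cd8b1 (-0.001 ± 0.33, SE), so Cd4 and Cd8a lay on opposite sides. The 11 NK markers overlapped as given above, with a median of -0.07 and 3 of 11 above 0. Within groups Pim1 had a Pearson r of 0.44 with the T cell sum.

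Set against those sums, a scale chosen after seeing the data, the separation of Pim1 depended on the markers used. Per 1000 counts of conventional DC markers there were 46.3, 44.2, 37.6 and 44.5 Pim1 counts in DRQ and 40.4, 38.6, 34.7 and 41.5 in PBS, and the groups overlapped with a log2 difference of 0.15. Per 1000 counts of mature DC markers the values were 275 to 397 in DRQ and 335 to 426 in PBS, also overlapping, with a log2 difference of -0.14. Per 1000 NK marker counts they were 30.1 to 51.3 in DRQ and 19.3 to 25.0 in PBS, and per 1000 T cell marker counts 191 to 207 in DRQ and 103 to 170 in PBS, both apart. The part of DC or T cell abundance in the Pim1 difference was not tested.

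**Figure D4:**
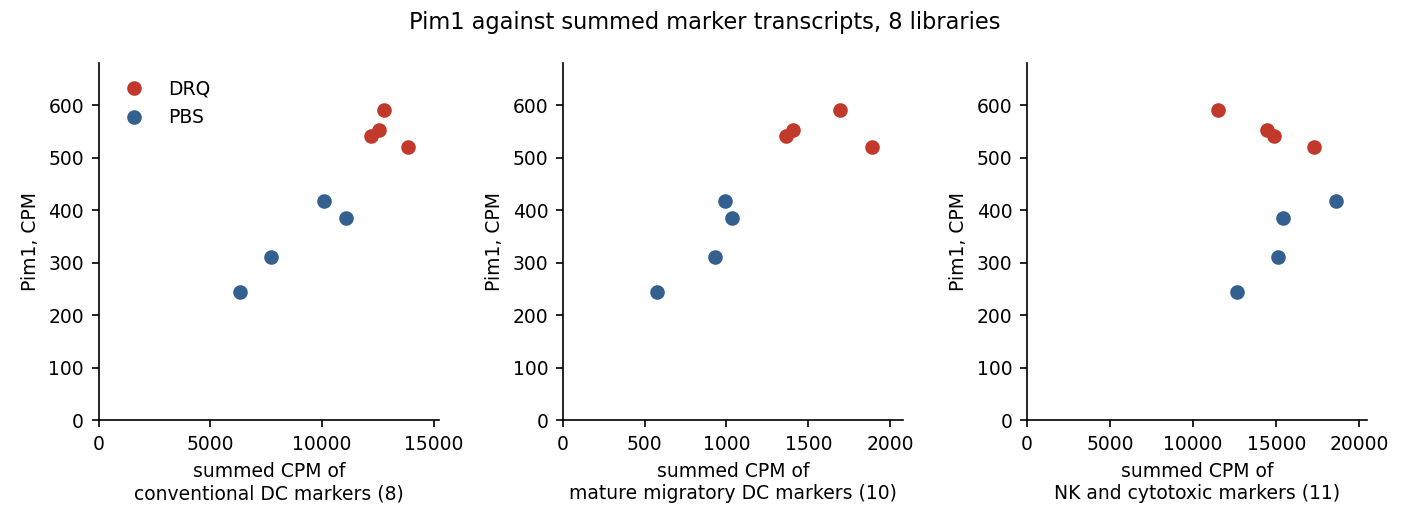
Pim1 CPM (vertical axis) against the summed CPM of 8 conventional DC, 10 mature migratory DC and 11 NK and cytotoxic markers (horizontal axes, all from 0), 1 point per library, DRQ red and PBS blue. DRQ points lie above and to the right of PBS points in the first pair of panels, whereas in the NK panel the DRQ sums (11521 to 17273 CPM) overlap the PBS sums (12655 to 18614 CPM).

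Sums of markers of other cell types (type 1 and type 2 conventional DCs, plasmacytoid DCs, B, epithelial, and fibroblast or endothelial cells) overlapped between the groups. Several of these sums rest on few genes. B cell markers were 2 of 6 listed, mostly Ighm, and epithelial markers 4 of 7. Fibroblast or endothelial markers were 2 of 7 listed, Pecam1 and Cdh5, without Col1a1, Col1a2, Col3a1, Dcn or Pdgfrb. That sum thus does not compare fibroblasts. Single markers of these cell types did differ by edgeR at an unadjusted p under 0.05, none after adjustment, and are named after their values were seen. The epithelial keratin Krt8 measured 20.4 to 109 CPM in DRQ and 111 to 194 CPM in PBS, with groups apart. Its log2 fold change was -1.08 ± 0.33 (SE), with an adjusted p of 0.333 by edgeR. The other listed epithelial markers did not share this separation. Krt18 stood at -0.01 ± 1.04 (SE). Cdh1 and Epcam were too low to test and their groups overlapped, with the DRQ mean higher for Cdh1 and lower for Epcam. Ighm, the B cell immunoglobulin heavy chain, measured 269 to 500 CPM in DRQ and 198 to 290 CPM in PBS (0.55 ± 0.18, SE; adjusted p = 0.370 by edgeR). In the type 2 conventional DC list, Mgl2 stood at 1.78 ± 0.41 and Cd7 at -0.48 ± 0.15 (SE), with groups apart for both. Cd7 was the most abundant gene of that list, averaging 386 CPM over the 8 libraries. Clec10a and Cd209a of the same list were too low to test, with groups apart and DRQ higher. Clec10a measured 21.3 to 62.9 CPM in DRQ and 3.00 to 15.5 CPM in PBS. Cd209a measured 18.3 to 50.8 CPM in DRQ and 5.73 to 15.0 CPM in PBS. Monocyte and macrophage markers, 7 of 11 listed, summed to 246 to 1127 CPM in DRQ and 268 to 702 CPM in PBS. Neutrophil markers, 5 of 7 listed and with S100a8 and Cxcr2 not listed, summed to 69.2 to 390 CPM in DRQ and 168 to 1570 CPM in PBS. PBS replicate 2 held the 1570 CPM, mostly Mmp9, and was also the library with the lowest Pim1 and Socs3. In PBS Mmp9 measured 103 to 1536 CPM, while Csf3r, Ly6g, Retnlg and S100a9 reached at most 16.8, 5.62, 98.1 and 15.5 CPM. The sum thus follows Mmp9 more than the other neutrophil markers. Within groups Socs3 had a Pearson r of -0.86 with this sum over the 8 libraries. The part of PBS replicate 2 in these values was not tested. Without PBS replicate 2 the log2 fold change was 0.57 for Pim1 and 0.14 for Socs3.

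Upstream of the members, all 6 STAT genes listed had estimates above 0, with a median log2 fold change of 0.37, and none passed with edgeR's quasi-likelihood test and Benjamini-Hochberg adjustment. Stat3 stood at 0.39 ± 0.17, Stat5a at 0.52 ± 0.39, Stat5b at 0.55 ± 0.32, Stat6 at 0.35 ± 0.23, Stat2 at 0.32 ± 0.23 and Stat4 at 0.01 ± 0.22 (SE). The 4 JAK kinases were divided, with Jak2 at 0.56 ± 0.26 and Jak3 at 0.45 ± 0.24, and with Jak1 at -0.20 ± 0.16 and Tyk2 at -0.46 ± 0.24 (SE). None of the 4 passed (adjusted p from 0.669 to 0.846 by edgeR).

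None of the cytokines or receptors that signal through JAKs passed with edgeR. Of 20 cytokines 12 were listed and 4 tested, all 4 with estimates above 0 and none passing: Ifng, the interferon of NK and T cells, at 0.17 ± 0.14, Csf2, which encodes GM-CSF, at 0.35 ± 0.32, Osm at 0.58 ± 0.33 and the interleukin-27 subunit Ebi3 at 0.90 ± 0.52 (SE). Of 26 receptors 16 were tested and 13 had estimates above 0, with a median of 0.10. The interleukin-2 receptor chains Il2rb and Il2rg stood at 0.04 ± 0.14 and 0.07 ± 0.13, Ifngr1 at 0.05 ± 0.16 and Crlf2 at 0.13 ± 0.18 (SE). Csf2rb, the shared signalling chain of the GM-CSF, interleukin-3 and interleukin-5 receptors, is named after its values were seen: it measured 44.4 to 89.7 CPM in DRQ and 14.0 to 43.9 CPM in PBS, with a log2 fold change of 1.30 ± 0.36 (SE; adjusted p = 0.238 by edgeR).

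Among 12 other genes that STAT factors are known to induce, 9 had estimates above 0, with a median of 0.31, and none passed with edgeR. Junb, an AP-1 factor, averaged 2240 ± 503 CPM in DRQ and 1403 ± 140 CPM in PBS (SD, n = 4 each), with groups apart and a log2 fold change of 0.67 ± 0.14 (SE; adjusted p = 0.0515 by edgeR). The costimulatory receptor gene Tnfrsf9 stood at 0.36 ± 0.15, and the cyclins Ccnd2 and Ccnd3 at -0.10 ± 0.15 and 0.15 ± 0.15 (SE). PIM substrates and the chaperones that stabilise PIM kinases had 4 of 8 estimates above 0 and a median of -0.02. Of these the cell cycle inhibitor Cdkn1a stood at 0.68 ± 0.19 (SE; adjusted p = 0.248 by edgeR), Hsp90aa1 at 0.11 ± 0.16, Hsp90ab1 at -0.09 ± 0.11 and the translation factor Eif4b at 0.06 ± 0.19 (SE).

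The rest of the feedback machinery did not pass either. Socs4, Socs5, Socs6 and Socs7, the SOCS genes outside the group, were all listed but too low to test, with means over the 8 libraries of 6.50, 7.77, 6.85 and 20.6 CPM. Subunits of the ubiquitin ligase that the SOCS box recruits had a median of 0.04 over 5 tested genes, with Elob at -0.03 ± 0.14, Rbx1 at 0.21 ± 0.25, Rnf7 at -0.54 ± 0.28 and Eloc at 0.04 ± 0.38 (SE). Other negative regulators had 4 of 9 estimates above 0 and a median of -0.01. The phosphatases Ptprc, Ptpn6 and Ptpn1 stood at -0.01 ± 0.13, 0.10 ± 0.17 and -0.30 ± 0.24, and Usp18, an interferon-induced brake on interferon receptor signalling, at 0.42 ± 0.21 (SE).

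In all, 64 of the 102 genes in these lists were tested and 45 of them, 70.3%, had estimates above 0, against 48.4% of all genes tested. With edgeR 0 were called higher and 0 lower, where 0.0325% and 0% of all tested genes were. At an unadjusted p under 0.05 edgeR gave 9 higher and 2 lower of the 64, against 245 higher and 202 lower of the 6156. The 2 lower were Myc (-0.48 ± 0.21, SE) and the PIM substrate Akt1s1 (-1.31 ± 0.36, SE), named after their values were seen. DESeq2 called 1 list gene higher, Junb (Benjamini-Hochberg adjusted p = 0.0124), and limma-voom called 0.

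**Figure D5:**
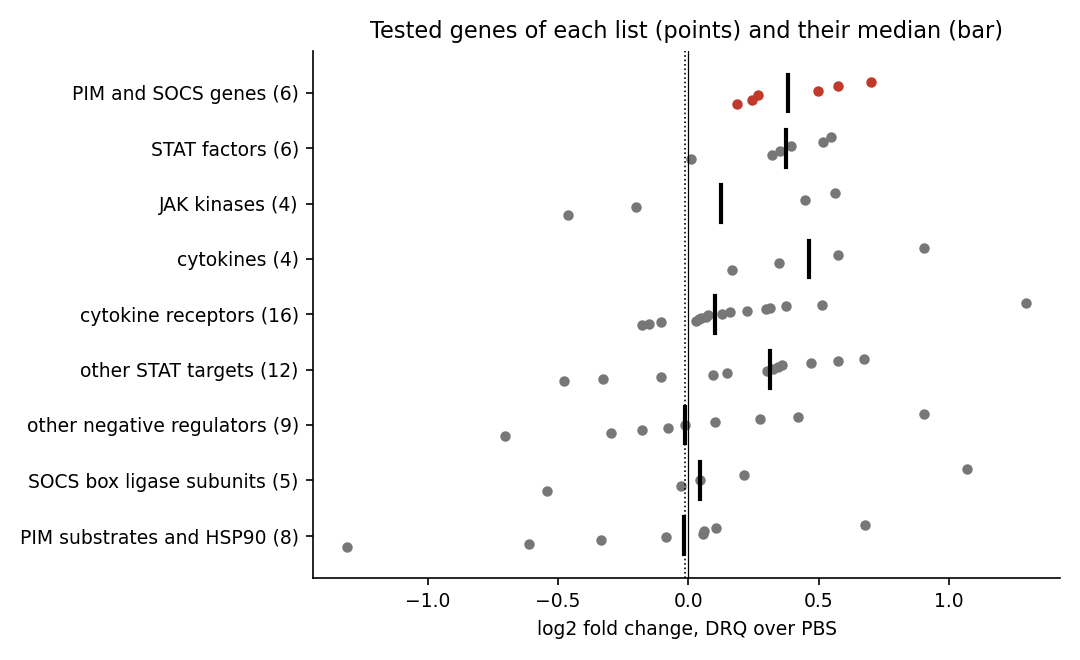
Log2 fold change of DRQ over PBS (horizontal axis) of the tested genes in each list, 1 point per gene, with the list's median as a black bar, the PIM and SOCS genes in red and the median of all genes tested (-0.01) as a dotted line. All points of the PIM and SOCS row and of the STAT row are above 0, whereas the rows of negative regulators and PIM substrates spread to both sides.

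The genes whose pattern over the 8 libraries was most like that of a member were sought among those of at least 50 mean CPM, by Pearson r of log2 CPM. Pim1 was closest to H2-Eb1, an MHC class II chain (r = 0.98, and 0.92 after group means were subtracted), then to Il1b, which encodes interleukin-1β (0.96 and 0.85), and to the interferon-induced Rtp4 (0.95 and 0.91). Cish was closest to Brd2 (0.98 and 0.96), Bcl7b (0.94 and 0.92) and Parp3 (0.94 and 0.94). Socs3 was closest to Ehd4 (0.94 and 0.92), the cytokine gene Clcf1 (0.93 and 0.90) and Rbx1 (0.92 and 0.91). For Pim2 the genes were Eif4h (0.95 and 0.97), Parp14 (0.93 and 0.92) and Mfge8 (0.92 and 0.91), and for Pim3 Abcb1a (0.94 and 0.97), Uvrag (0.94 and 0.94) and Gsdmd (0.93 and 0.93). No gene stood in more than 1 of these lists. With 3596 genes compared over 8 libraries, values this high are a description of these libraries, and genes with r above 0.9 numbered 21 for Pim1, 6 for Pim2, 5 for Pim3, 4 for Cish and 9 for Socs3.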

How the data were processed

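RNA of tumour DC sorts was sequenced from 3′ ends with molecular identifiers, following a bulk version of MARS-seq, per the labels' protocols. Tools listed in the submitters' processing notes, with no roles given, are STAR 2.7.3a, HTSeq, cutadapt, bcl2fastq 2.20.0.422, DESeq and DESeq2 1.26.0, with the build GRCm39. Raw counts per Ensembl gene, as whole numbers, were deposited in 1 table. A second deposited table gives a normalized signal, the count over 1 size factor per library: no value differed by more than 0.005 from the count divided by the median-ratio factor. The sources used here do not give whether identifiers were collapsed or strand was used. Intervals cover counting error only, and they and the CVs from counting would be too small if identifiers were not collapsed. Overlapping or antisense genes cannot be told apart. Symbols matched for 10788 of 10825 IDs.

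Counts were fitted over the whole table with edgeR 4.0.16 in R 4.3.3 (quasi-likelihood F test, robust and 2-sided; filterByExpr; TMM scaling; Benjamini-Hochberg adjustment at 0.05); log2 fold changes are DRQ over PBS. CPM use TMM-scaled totals of the 6156 tested genes, which hold 94.9% of counts, and log2 CPM a prior count of 2. The members, lists and rules were chosen with earlier results of these data known. Named genes were all members, the tested JAK and STAT genes and the 4 most abundant tested genes of each other list; not every gene covered is reported, and lists are counted without those left out. Csf2rb, Myc, Akt1s1 and single cell type markers are named outside this rule, after their values were seen. Also named were the 3 genes most like each member of at least 50 mean CPM that passed the filter. Alternatives used DESeq2 1.42.0, limma 3.58.1, other scalings, other filters, a replicate block, the normalized table and each library left out. The fit was tested on simulated data. Figures used matplotlib 3.10.9.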

Additional observations from a re-analysis of the deposited data

How the results depend on the processing

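In 16 other fits every estimate of the 6 tested members stayed above 0. Pim1 passed an adjusted p of 0.05 in 3 of its 16: with library totals only (0.73), with DESeq2 (0.70) and without PBS replicate 4 (0.82); no other tested member did in any. Counts of all genes called changed more: with library totals only 7 were higher, without the filter 7 higher and 1 lower, with DESeq2 14 higher and 1 lower, with a replicate block 6 higher, and with the deposited normalized values 1 higher. Leaving out 1 library gave 0 (without DRQ replicate 3) to 14 (without PBS replicate 4) higher and 0 to 1 lower. List genes called higher were 1 with library totals only, 1 without the filter, 1 with DESeq2, 1 with the replicate block and 0 to 1 with 1 library left out; the gene was Junb, except without PBS replicate 4, where it was Cdkn1a. On the scales chosen after seeing the data, Pim1 stood at 0.15 per conventional DC marker count and -0.14 per mature DC marker count, against 0.82 and 0.60 per NK and T cell marker count. The cause of these changes was not tested. The labels state no pairing, so the replicate block is only an alternative. Libraries with equal replicate numbers shared little of their deviations (correlations from -0.01 to 0.08), which cannot exclude a pairing. Depth limits Socs1, with 48 counts in all.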
